A study of Drosophila melanogaster with 8 samples.

Results

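Haemocytes are the blood cells of Drosophila, and Kc cells (Kc167, a female embryonic line) resemble them. Described here are 9 genes of this lineage, chosen by name as regulators and markers of haemocytes, out of 13968 protein-coding genes. They comprised 5 transcription factor genes, srp, ush, zfh1, gcm and lz, and 4 effector genes, Hml, Pxn, NimC1 and crq. The question was where Argonaute2 (AGO2), the small RNA binding protein of RNA interference, lay on these genes in chromatin and whether its position differed when transcription was blocked. Cells received either a mock treatment or Triptolide, which inhibits initiation of transcription, at 10 µM for 60 min. Each treatment had 2 AGO2 ChIP-seq replicates, all from the same cell line with the same AGO2 antibody, and MACS2 peaks were given for every replicate separately. A peak was taken for a gene when it overlapped the gene or lay within 1500 bp of it. Mock replicates 1 and 2 held 1055 and 1919 peaks genome-wide, and Triptolide replicates 1 and 2 held 5594 and 5873. Sequencing depth is unknown, so a missing peak means only that none was called. Peak lists hold no RNA levels, and the labelled cell type could not be checked by its markers. Nothing in the labels says that replicates came from separate cultures.

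Specification of the lineage rests on a small set of factors. Serpent (Srp) is the GATA factor needed to form haemocytes, and U-shaped (Ush) is a Friend of GATA cofactor that binds it. Gcm drives early plasmatocytes, the phagocytic haemocytes. Lozenge (Lz) is the RUNX factor of crystal cells, the haemocytes that hold the enzymes of melanization, and Zfh1 is a zinc finger homeodomain repressor of the ZEB family. Among the effectors, Hml (Hemolectin) is a clotting protein and Pxn (Peroxidasin) is a secreted enzyme that crosslinks collagen IV. NimC1 is a phagocytosis receptor for bacteria, and Croquemort (crq) is a CD36 family receptor for dying cells.

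The sequences under the summits are shown for the regions that both replicates of a treatment called. In all, 5 mock windows and 3 Triptolide windows of 120 bases are given, each in the direction of its gene and centred on the mean summit of the replicates, on the dm6 build. Each window shown held every summit of that treatment in the region and no untranslated sequence. Of the mock windows, 3 come from introns of a single gene, ush. The zfh1 promoter region was called in Triptolide replicate 1 as well. Capitals mark GAGAG, the GATA words AGATAA and TGATAA, the RUNX word AACCACA and the initiator words TCAGTT and TCAGTC, on either strand. In the first ush window an initiator word overlaps the GATA word in each of the 2 capital runs.
zfh1, mock, 168 bp upstream of the first start site (chr3R:30765699-30765818): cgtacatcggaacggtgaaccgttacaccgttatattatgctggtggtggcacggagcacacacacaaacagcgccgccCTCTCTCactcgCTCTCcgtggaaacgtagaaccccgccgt
lz, mock, 452 bp upstream of the start site (chrX:9284138-9284257): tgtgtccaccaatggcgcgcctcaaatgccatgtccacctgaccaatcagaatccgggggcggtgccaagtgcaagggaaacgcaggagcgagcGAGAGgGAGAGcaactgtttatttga
ush, mock, intron (chr2L:484673-484792): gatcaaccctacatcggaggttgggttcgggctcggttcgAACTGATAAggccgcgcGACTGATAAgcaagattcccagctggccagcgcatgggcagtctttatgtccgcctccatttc
ush, mock, intron (chr2L:485608-485727): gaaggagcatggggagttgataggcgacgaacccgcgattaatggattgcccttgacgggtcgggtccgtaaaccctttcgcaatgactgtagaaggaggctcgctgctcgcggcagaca
ush, mock, intron (chr2L:516539-516658): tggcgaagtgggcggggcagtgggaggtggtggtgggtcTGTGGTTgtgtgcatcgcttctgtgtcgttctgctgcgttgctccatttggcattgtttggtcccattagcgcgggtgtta
zfh1, Triptolide, coding sequence (chr3R:30774379-30774498): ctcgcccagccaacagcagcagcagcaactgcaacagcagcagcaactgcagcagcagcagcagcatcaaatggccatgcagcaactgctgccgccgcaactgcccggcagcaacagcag
ush, Triptolide, coding sequence (chr2L:539787-539906): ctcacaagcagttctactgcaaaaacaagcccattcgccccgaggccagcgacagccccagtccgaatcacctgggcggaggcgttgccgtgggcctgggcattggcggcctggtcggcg
NimC1, Triptolide, beyond its 3′ end and inside NimB5 (chr2L:13971419-13971538): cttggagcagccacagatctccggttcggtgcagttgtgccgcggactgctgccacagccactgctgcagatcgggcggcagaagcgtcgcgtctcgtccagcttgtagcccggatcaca
The upstream windows of zfh1 and lz held 3 and 2 matches to GAGAG, the word bound by GAGA factor. Of the intronic ush windows, the first held 2 GATA words, the second none of the words and the third 1 RUNX word. None of these words was found in the 3 Triptolide windows shown. CAG or its complement CTG occurred 22 times in the Triptolide window of zfh1, 8 times in that of ush and 11 times in that of NimC1, against 2 and 4 times in the mock windows of zfh1 and lz and 6, 3 and 5 times in those of ush. The split was less clear in windows not shown. Those of regions in both Triptolide lists only held CAG or CTG from 3 times, beyond the end of ush, to 15 times, in zfh1. The latter also held 1 GAGAG match. The window of the srp region in all 4 lists held CAG or CTG 8 times, and the mock window at the second ush start site 1 time. A match to a word is a description of these letters and not a binding site.

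AGO2 peaks in mock cells lay at the transcription factor genes and at none of the effector genes. Both mock lists held peaks at srp, ush, zfh1 and lz, that is at 4 of 5 transcription factor genes. At Hml, Pxn, NimC1 and crq, both mock lists held 0 peaks. Over all protein-coding genes, 7.07% had a peak in mock replicate 1, 12.3% in mock replicate 2 and 6.67% in both, so 87.3% had a peak in neither. The absence at the 4 effector genes is thus the common state of a gene. Long genes carried peaks more often, and both mock lists had a peak at 20.5% of genes from 10 to 30 kb, the length class of srp, zfh1, lz, Hml and Pxn. In that class 3 of 5 members were called. The share was 29.1% above 30 kb, where ush lies, and 2.84% below 5 kb, where gcm, NimC1 and crq lie. Among the transcription factor genes gcm alone had 0 peaks in any list.

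After Triptolide, peaks were called at effector genes too. Triptolide replicate 1 held peaks at 5 members and replicate 2 at 6, and srp, ush, zfh1, Pxn and NimC1 were in both. Over all protein-coding genes the share was 40.0% and 40.6% for the single lists and 30.0% for both. By length, the share for both was 24.3% below 5 kb, 49% from 10 to 30 kb and 65.5% above 30 kb. Pxn and NimC1 had peaks in both Triptolide lists and in no mock list, a pattern shown by 23.2% of protein-coding genes. The genes srp, ush and zfh1 had a peak in all 4 lists, against 3.92% of genes, but mostly at other positions as described below. In their length classes the share was higher, at 13.5% from 10 to 30 kb (srp and zfh1) and 23.1% above 30 kb (ush). A peak in both mock lists and no Triptolide list was found at 1.24% of genes and at 0 members. At gcm, Hml and crq there were 0 peaks in any list, as did 46.3% of genes.

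Peaks at transcription factor genes numbered 13 and 18 in mock replicates 1 and 2 and 11 and 9 in Triptolide replicates 1 and 2. The lists of the treatments did not overlap in this number, with 15.5 ± 3.54 (SD, n = 2) peaks in mock and 10 ± 1.41 (SD, n = 2) after Triptolide (p = 0.333 by a two-sided permutation test, exact, which cannot go lower with 2 lists against 2). Without mock replicate 2 the difference was -3 peaks, against -5.5. At effector genes the lists held 0, 0, 2 and 5 peaks in the same order (exact permutation p = 0.333), and the difference of 3.5 was 2 without Triptolide replicate 2. Summed over the 9 genes, mock replicates held 13 and 18 peaks and Triptolide replicates 13 and 14, so the treatments overlapped (exact permutation p = 1). Whole lists were longer after Triptolide, and member peaks made up 1.23% and 0.938% of the mock lists but 0.232% and 0.238% of the Triptolide lists. Taking the 1055 top-scoring peaks of every list gave 13 and 13 peaks at transcription factor genes in mock and 7 and 6 after Triptolide, and 0, 0, 1 and 3 peaks at effector genes.

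**Figure D1:**
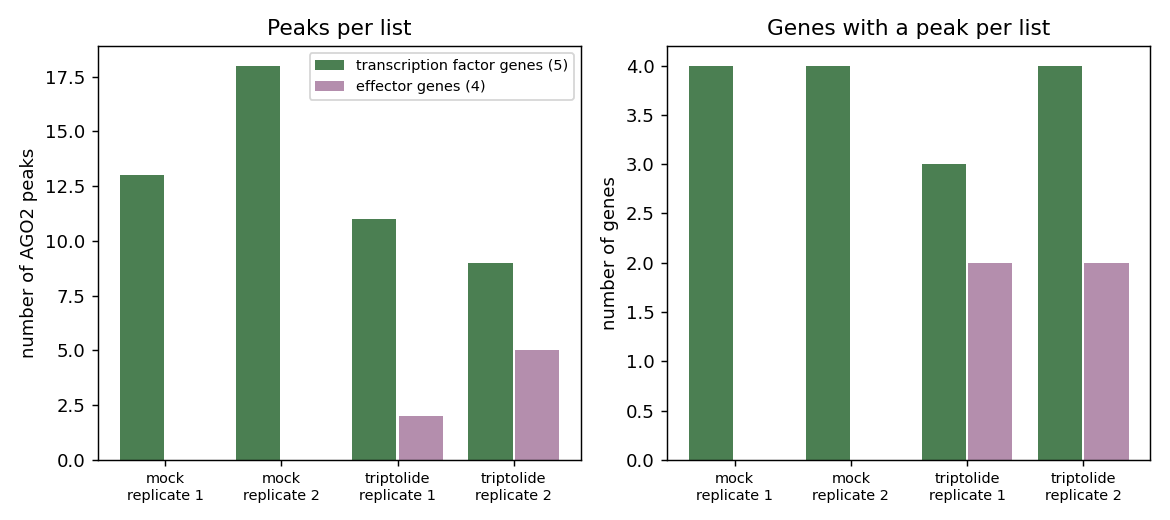
Number of AGO2 peaks (left) and number of genes with a peak (right) in each of the 4 lists, for 5 transcription factor genes (green bars) and 4 effector genes (purple bars). Effector genes had 0 peaks in both mock lists and 2 and 5 in Triptolide replicates 1 and 2.

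The zfh1 gene (FBgn0004606, chr3R:30765926-30789202, plus strand, 2 start sites) carried the peak of highest rank among the members. Its promoter peak had a fold enrichment over local background of 8.87 and 14.9 in mock replicates 1 and 2 and of 7.39 in Triptolide replicate 1. Summits lay 183, 154 and 165 bp upstream of the first start site, a spread of 29 bp. Triptolide replicate 2 had 0 peaks there. By score, the peak ranked at percentile 93.5 and 97.5 of the mock lists and 99.7 of Triptolide replicate 1, where a percentile is the rank of a peak within its own list. The promoter of zfh1 was thus marked in 3 of 4 lists at the same place. Both Triptolide lists further held peaks in coding sequence that neither mock list had. Their summits lay 8477 and 8546 bp downstream of the first start site, with folds of 3.84 and 4.72, and 3183 and 3117 bp downstream of the second, with folds of 3.99 and 2.50. Mock replicate 2 alone had an intronic peak near the first of these, with its summit 8035 bp upstream of the second start site.

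The srp gene (FBgn0003507, chr3R:15986152-16004085, plus strand, 4 start sites) had 3 and 7 peaks in the mock lists and 4 in each Triptolide list. Both mock lists marked sequence upstream of the gene, 1314 and 1289 bp before the first start site, with folds of 7.62 and 7.23. Neither Triptolide list had a peak there. A second mock position lay in 5′ UTR sequence 835 and 828 bp upstream of the third start site, with folds of 7.40 and 10.2. Triptolide replicate 1 had a summit 828 bp upstream, too, with a fold of 4.84, and replicate 2 had 0 peaks there. The non-coding gene lncRNA:CR44133 overlaps this position. Around the third start site the lists overlapped as intervals but not in their summits. Mock summits lay 341 and 307 bp downstream of it, whereas the strongest Triptolide peaks had summits 898 and 925 bp downstream, with a further summit at 191 bp in Triptolide replicate 2 and one at 1508 bp, in a weaker peak that overlapped the Triptolide peaks, in mock replicate 2. This was the only member region held by all 4 lists, and 0 regions were when peaks had to share 50% of their length. Triptolide lists alone marked coding sequence 362 and 545 bp and 4104 and 4047 bp downstream of the fourth start site. Mock replicate 2 alone had a peak 335 bp upstream of the first start site, with a fold of 3.80. It also had an intronic peak 1137 bp downstream of that start site and a peak 1209 bp beyond the end of srp, with folds of 4.58 and 2.49.

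The ush gene (FBgn0003963, chr2L:476220-540560, plus strand, 4 start sites) held 8 peaks in each mock list. Only 2 protein-coding genes had more peaks in mock replicate 1 and 6 in mock replicate 2, and ush spans 64.3 kb, in which several peaks can be called. Both mock lists marked the second start site, with summits 84 and 89 bp upstream and folds of 4.17 and 7.68. The third start site was marked 49 and 54 bp downstream, with folds of 5.80 and 9.02. Triptolide lists had 0 peaks at either. Intronic positions, 3 in number, were likewise called in both mock lists only, at 6117 and 6088 bp and at 5117 and 5219 bp upstream of the second start site and at 6869 and 6868 bp upstream of the third. Another intronic stretch, at chr2L:478986-481828, was a single peak in mock replicate 2, 3 peaks in mock replicate 1 and 2 in Triptolide replicate 1. The gene cbt, which encodes a zinc finger transcription factor, lies in this intron, and a summit of mock replicate 1 was 128 bp and one of Triptolide replicate 1 was 126 bp from a start site of cbt. That stretch can therefore not be assigned to ush alone. Mock replicate 2 alone had intronic peaks 955 and 3065 bp downstream of the fourth start site, with folds of 5.16 and 3.08. Both Triptolide lists marked the far end of ush, in coding sequence 16073 and 16148 bp from the nearest start site, with folds of 2.85 and 2.90. A last pair of Triptolide peaks, with folds of 3.28 and 3.80, lay 1725 and 1633 bp beyond the end of ush, inside the neighbouring gene lwr and 295 and 387 bp from a start site there.

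The lz gene (FBgn0002576, chrX:9284649-9303636, plus strand, 1 start site) had no position shared between the treatments. Mock summits lay 445 and 459 bp upstream of its start site, with folds of 6.30 and 11.5 and percentiles of 67.2 and 88.0. Triptolide replicate 1 had 0 peaks at lz. The single peak of Triptolide replicate 2 lay in coding sequence 17659 bp downstream, with a fold of 2.53 and a −log10 q-value of 1.99. The gcm gene (FBgn0014179, chr2L:9579498-9581745, minus strand) is short, at 2.2 kb, and had 0 peaks even within 5000 bp.

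**Figure D2:**
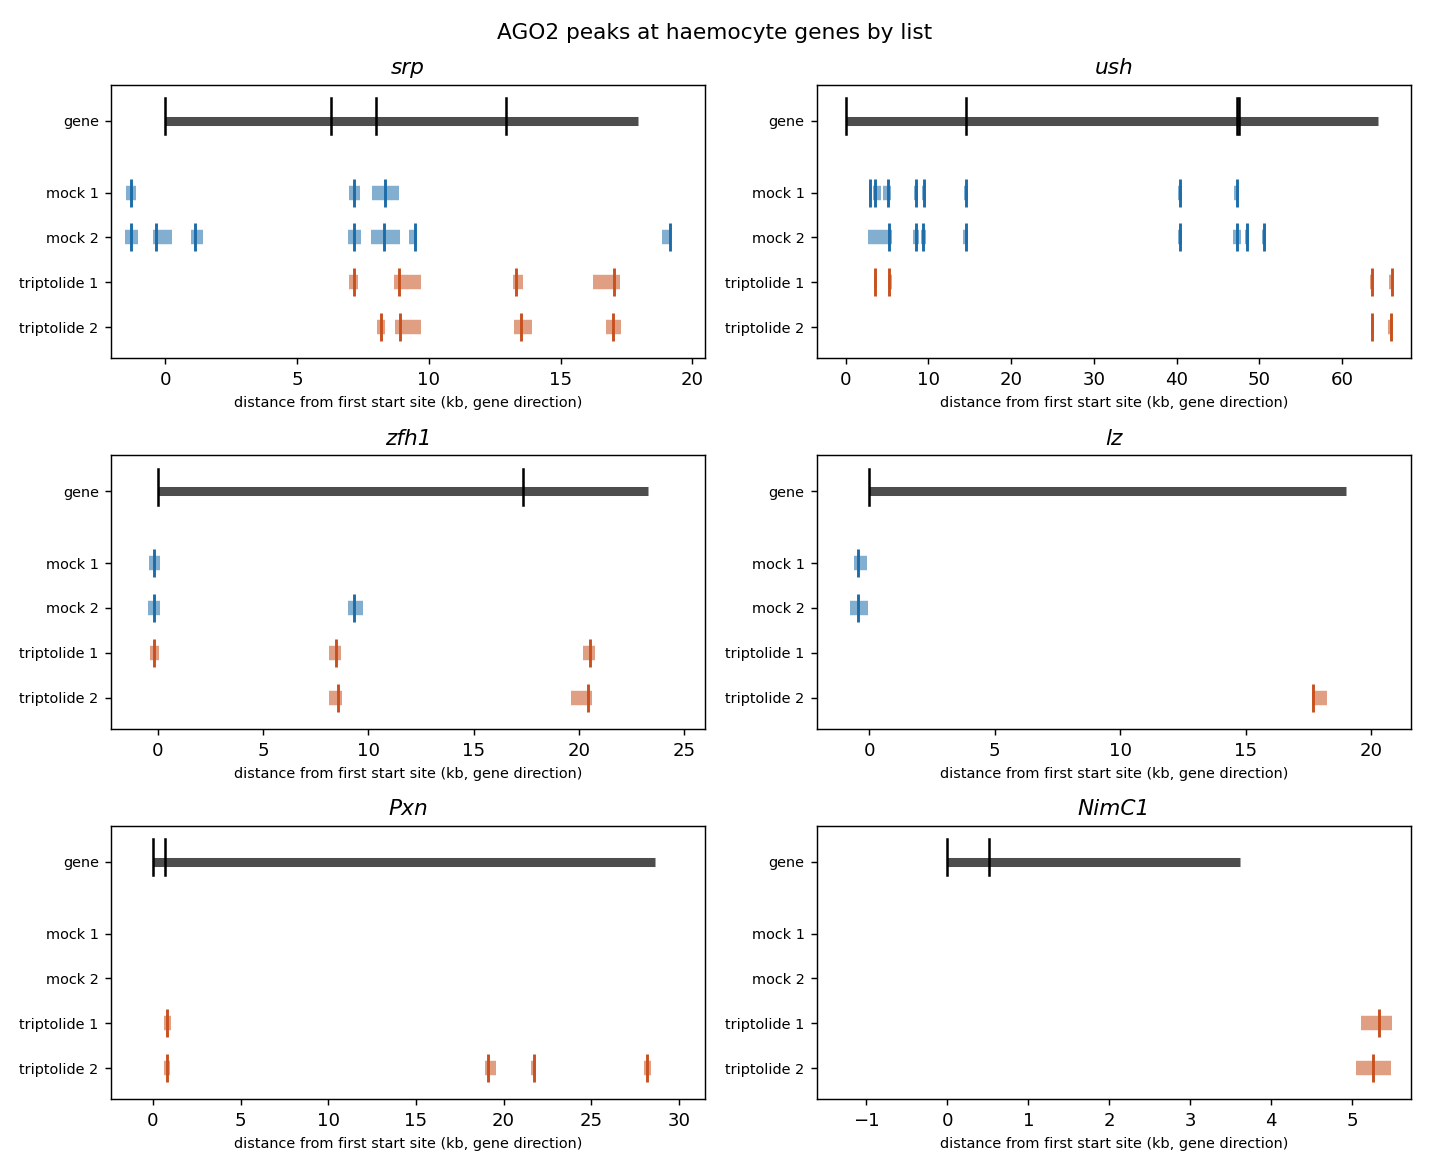
Peaks (bars) and summits (ticks) of the 4 lists along 6 genes, in kb from the first start site in the direction of the gene, with the gene as a grey bar and its start sites as black ticks. Mock peaks (blue) of both replicates sit near or upstream of start sites of srp, ush, zfh1 and lz and in introns of ush. Mock replicate 2 alone has further peaks upstream of, inside and beyond srp, in ush and in a zfh1 intron. Triptolide peaks (orange) sit mostly inside the genes, and Pxn and NimC1 have Triptolide peaks only.

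The effector genes differed among themselves. Pxn (FBgn0011828, chr3L:2601455-2630064, minus strand, 2 start sites) had a peak close to its second start site in both Triptolide lists. Its summits lay 104 and 101 bp downstream, in coding sequence, with folds of 3.95 and 4.26 and percentiles of 80.0 and 88.1. Replicate 2 further had 3 peaks between 18413 and 27505 bp from that start site, of which replicate 1 had none. NimC1 (FBgn0259896, chr2L:13973158-13976769, minus strand) had a single peak in either Triptolide list, with folds of 3.51 and 4.42. Both summits lay 1718 and 1641 bp beyond the end of NimC1 and inside NimB5, the next gene of the Nimrod cluster, so that 0 peaks overlapped NimC1 itself. Hml (FBgn0029167, chr3L:13846054-13860001) and crq (FBgn0015924, chr2L:448254-453024) had 0 peaks within 1500 bp. Counting peaks within 5000 bp ended the absence in mock at 1 effector gene. A peak in both mock lists then fell 2794 and 2856 bp upstream of Pxn, inside MEP-1 and 583 and 645 bp from a start site of that gene.

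Pooled over the members, summits lay farther from start sites of their own gene after Triptolide. The median distance from a summit to the nearest start site of its own gene was 1314 bp in mock replicate 1 and 1213 bp in mock replicate 2. It was 3594 bp in Triptolide replicate 1 and 6641.5 bp in Triptolide replicate 2, and the means differed by 3854 bp (exact permutation p = 0.333). Without Triptolide replicate 2 the difference was 2330.5 bp, and with peaks of −log10 q of at least 5 it was 2435 bp. The lists of the treatments did not overlap in this distance. The medians pool genes, and at srp the distances overlapped. There they were 341, 835 and 1314 bp in mock replicate 1 and ran from 307 to 6205 bp in mock replicate 2. After Triptolide they were 362, 828, 898 and 4104 bp in replicate 1 and 191, 545, 925 and 4047 bp in replicate 2. Triptolide replicate 2 alone held the Pxn peaks at 18413, 21027 and 27505 bp and the lz peak at 17659 bp. Some summits lay nearer to start sites of other genes, such as cbt in both treatments and lwr and NimB5 after Triptolide. Measured to the nearest start site of any gene, the list medians overlapped, since mock replicate 2 lay above Triptolide replicate 1. Over peaks at all protein-coding genes the mock medians were 646 and 765 bp, and those of Triptolide 1705 and 1865 bp. Summits within 250 bp of a start site of the member numbered 3 in each mock list and 2 in each Triptolide list. Those in mock lay at zfh1 and at ush, where they marked 2 positions. Those after Triptolide were at zfh1 and Pxn in replicate 1 and at srp and Pxn in replicate 2. As shares these were 23.1% and 16.7% in mock and 15.4% and 14.3% after Triptolide, or -5.04 percentage points (exact permutation p = 0.333), which turned to 1.31 with peaks of −log10 q of at least 5. Over all protein-coding genes the shares were 37.5% and 31.9% in mock and 3.98% and 3.19% after Triptolide.

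The sequence marked within the genes differed as well. Coding sequence of the member itself held 1 of 13 and 2 of 18 summits in mock replicates 1 and 2. In Triptolide replicates 1 and 2 it held 7 of 13 and 11 of 14. In whole lists, coding sequence of any gene held 6.49% and 9.94% of mock summits and 81.7% and 86.6% of Triptolide summits. These measures are unlike, since member summits inside a neighbouring gene, such as lwr or NimB5, could not count as coding. Introns held 6 and 8 of the members' mock summits and 2 and 1 of their Triptolide summits. Sequence upstream of the gene held 3 and 4 in mock and 1 and 0 after Triptolide, where the 1 was the zfh1 promoter. For GC content, the mock replicates had medians of 51.8% and 50.0% over the members' peaks. Those of Triptolide were 59.7% and 60.4%, higher by 9.16 percentage points (exact permutation p = 0.333). Whole lists had medians of 51.2% and 48.9% in mock and 58.9% and 59.8% after Triptolide, so the members' medians lay within 2 percentage points of their lists.

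**Figure D3:**
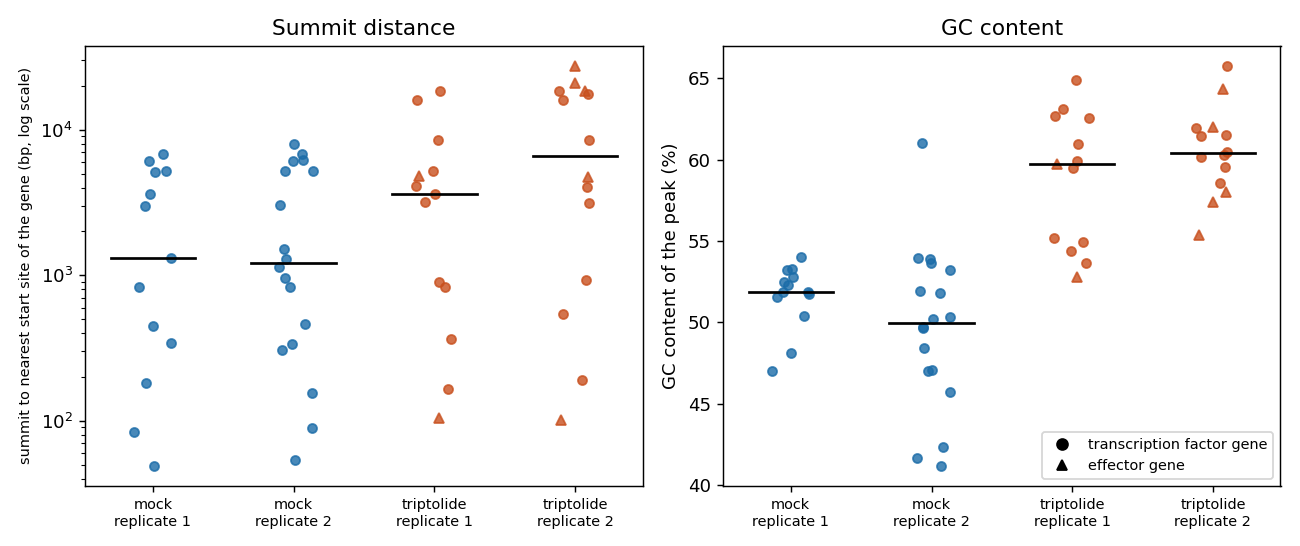
Distance from summit to the nearest start site of the gene (left, bp, log axis) and GC content (right, %) of each member peak in the 4 lists, with the median of each list as a black line, circles for transcription factor genes and triangles for effector genes. Median distances are 1314 and 1213 bp for mock, 3594 and 6641.5 bp for Triptolide, and medians of GC content are 51.8% and 50.0% against 59.7% and 60.4%.

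Peaks of the 4 lists at the members merged into 29 regions. Of these, 7 were held by both mock lists and no Triptolide list, at ush (5), srp and lz, with a GC content between 42.3% and 53.7%. A further 8 were held by both Triptolide lists and no mock list, at srp (2), ush (2), zfh1 (2), Pxn and NimC1, with a GC content between 53.0% and 65.8%. Both mock lists and Triptolide replicate 1 shared 3 regions, at the zfh1 promoter, upstream of the third srp start site and in the ush intron that holds cbt, and 1 region at srp was in all lists. In the remaining 10, 1 list alone held a peak, 6 times a mock list and 4 times a Triptolide list. Without Triptolide replicate 2 the regions held by all remaining lists numbered 4. Without mock replicate 1 those held by mock replicate 2 and no Triptolide list numbered 13. Both counts ask for a peak in fewer lists, a looser rule. No share of regions over whole lists stands beside these counts, and whole lists were longer after Triptolide. By gene, 1.24% of protein-coding genes had peaks in both mock lists only and 23.2% in both Triptolide lists only.

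**Figure D4:**
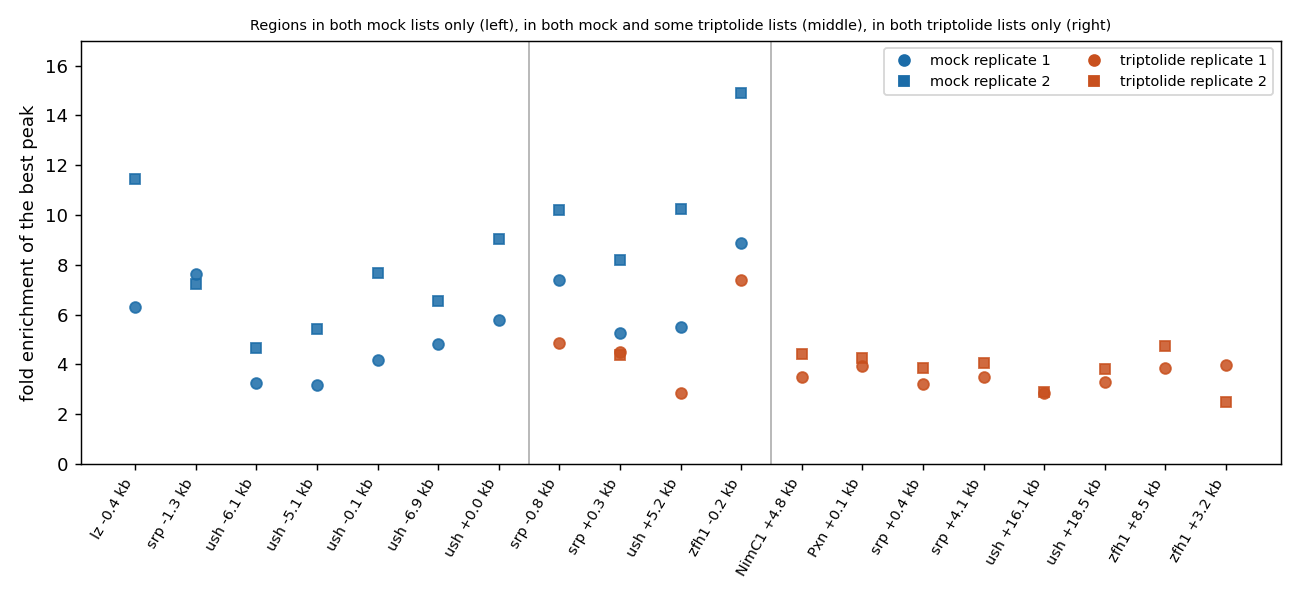
Fold enrichment (y axis, ratio over local background) of the highest-scoring peak of each list at the regions called in both lists of a treatment, named by gene and distance of the summit to the nearest start site in kb. Mock peaks (blue) reach 14.9 at the zfh1 promoter, and regions of Triptolide lists only (right) lie between 2.50 and 4.72. Whole lists differ too, with median folds of 5.00 and 4.73 in mock and 3.40 and 3.46 after Triptolide. Medians over all member peaks are 5.26 and 5.99 in mock and 3.51 and 3.83 after Triptolide.

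Words of the lineage's own factors were counted in the 300 bp around every summit. The GATA words were found at 5 of 13 and 9 of 18 member summits in mock and at 1 of 13 and 0 of 14 after Triptolide. The shares over whole lists were 20.3% and 22.7% in mock and 7.68% and 6.02% after Triptolide. Of the mock summits with a GATA word, 4 and 7 lay at ush and the others at srp. The RUNX word AACCACA was found at 3 of 13 (23.1%) and 3 of 18 (16.7%) member summits in mock, against 3.68% and 3.86% of all summits. In either mock list these lay at the same genes, srp, ush and zfh1. In Triptolide replicate 1 it was found at 2 of 13 member summits, at srp and zfh1, against 4.54% of all, and in replicate 2 at 0 of 14, against 4.33%. GAGAG was frequent at mock summits in general, at 89.9% and 83.5% of all and at 12 of 13 and 12 of 18 of the members', against 34.7% and 32.0% of all Triptolide summits and 7 of 13 and 2 of 14 of the members'. The pattern CAGCAG, chosen after the sequences were seen, was found at 32.0% and 32.5% of mock summits and at 56.7% and 59.2% of Triptolide summits. Among the members' summits it was found at 7 of 13 (53.8%) and 7 of 18 (38.9%) in mock. After Triptolide it was found at 11 of 13 (84.6%) and 8 of 14 (57.1%). In the 300 bases from 250 before to 50 after the first start site, a GATA word was found at 5 members, namely srp, Hml, Pxn, NimC1 and crq, and at 36.1% of all protein-coding genes. GAGAG was found there at zfh1, gcm and lz and at 29.7% of genes. Member summits are few and share genes, so these counts are given without a test.

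A list of 47 other haemocyte genes was set beside the members. Both mock lists had a peak at 7 of them (14.9%, against 6.67% of all protein-coding genes) and both Triptolide lists at 22 (46.8%, against 30.0%). Their median length was 7.17 kb, and among genes from 5 to 10 kb the shares were 11.2% and 37.2%. Among regulators, both mock lists had a peak at kn, a factor of lamellocyte and progenitor fate, and at the Hox gene Antp. The receptor gene N (Notch) and dome, the receptor of the JAK/STAT pathway, were called in both mock lists as well. Single mock lists held peaks at 5 and 6 of 13 regulators, and single Triptolide lists at 8 each. Among the other roles only pes, a CD36 family receptor gene, peb, a zinc finger factor gene, and mys, an integrin gene, had a peak in both mock lists. Of 9 genes for matrix proteins, 0 had a peak in both mock lists, and 2 had peaks in both Triptolide lists, namely Ppn and Tig. Single lists differed, and mock replicate 2 alone had peaks at 4 of the 9, namely Ppn, LanA, LanB1 and LanB2, against 0 in mock replicate 1 and 2 and 5 in Triptolide replicates 1 and 2. LanA and LanB1, which encode laminin subunits, had peaks in mock replicate 2 only. Of 17 receptor and phagocytosis genes, 9 had a peak in both Triptolide lists, namely drpr and 8 Nimrod genes. Nimrod genes lie side by side, and in Triptolide replicate 1 the 16 pairs of a peak with a receptor gene came from 11 peaks. In Triptolide replicate 2 the 28 such pairs came from 16 peaks. The remaining genes called in both Triptolide lists were Su(H), Stat92E, hop, pnr, msn and He, besides kn, Antp, dome, peb and mys. N and pes had peaks in both mock lists and in neither Triptolide list.

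Of these genes, 5 shared with srp, ush and zfh1 a peak in all 4 lists. Ordered by the summed difference of their best percentiles over the 4 lists, dome was nearest to each of the 3 members, at 27.3 percentile points for srp, 28.7 for ush and 13.2 for zfh1, followed by Antp and kn. At dome the summit nearest to a start site lay at 391 and 421 bp in mock and at 456 and 592 bp after Triptolide. Pxn and NimC1 shared their presence with 14 genes. For NimC1 the difference was 0 for He, NimB4 and NimB5, since the same peak lay within 1500 bp of all of them, and for Pxn the nearest were the same 3 genes at 14.1 points. No gene of the list had the presence of lz.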

How the data were processed

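Peak lists of 4 AGO2 immunoprecipitations were used, and the 4 inputs were not analysed by themselves. Per the methods and labels, the authors used cutadapt for trimming and bowtie2 for alignment to dm6, kept reads of mapping quality 20 or more, took out PCR duplicates (Picard) and ran MACS2 2.1.1.20160309 on single replicates. The deposited fold is a ratio over local background at the summit. The score deposited by the authors is 10 times the −log10 q-value, rounded down, with 0 exceptions, and the lowest deposited −log10 q-value was 1.32. Each list is the outcome of a threshold and depends on depth, which is unknown.

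Peaks were assigned to genes of the Ensembl annotation (BDGP6.54, release 115) on the chromosome arms, with Python 3.11.15, numpy 2.4.6 and pandas 2.3.3. Regions merged peaks that shared 1 bp. Sequence came from the RefSeq copy of Release 6, and 0 peaks passed a chromosome end. Values per list were compared with two-sided exact permutation tests. Gene and motif counts were set beside those of all protein-coding genes or whole lists. Overlap and distance functions were tested on simulated data. Members and lists were chosen with earlier results of these data known, and length classes after the data were examined. Named beyond the members were listed genes with a peak in both lists of a treatment and, by likeness, at most 3 genes with the same presence. Alternatives were stricter q-values, the top 50% of a list, equal list lengths, other distances to the gene, 50% reciprocal overlap, pairing by replicate number and leaving out each replicate. In all, 1 listed germline gene was not analysed here. In addition, 1 mock sequence window that met the rule for windows is not reported here.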

Additional observations from a re-analysis of the deposited data

How the results depend on the processing

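Of 118 values computed under an alternative, 109 kept their direction or stayed within 1.5 times the reported count, 6 counts moved further and 3 differences reversed. The 109 include the differences with lists paired by replicate number, which could not change. The exact permutation p cannot go below 0.333 here, so only direction and size were compared. The difference in the number of member peaks was -2 and reversed to 5 with peaks within 5000 bp, and with 1 replicate omitted it lay between -4.5 and 0.5, the latter without mock replicate 2. The share of summits within 250 bp of a start site of the member differed by -5.04 percentage points. With peaks of −log10 q of at least 5 the difference was 1.31. It was -8.24 to -1.83 with 1 replicate omitted, without mock replicates 2 and 1 in turn. Regions of both Triptolide lists only numbered 8, and 4 with that threshold, 3 with 1055 peaks per list and 13 within 5000 bp. With 1 replicate omitted, the list left stood for its treatment, which is a looser rule for a region. Regions of the remaining mock lists only then numbered 7 to 13, and regions in all remaining lists 1 to 4. With 50% reciprocal overlap, 0 regions were in all lists. Why counts moved under the other alternatives was not tested. With 1 replicate omitted, the difference in median distance to a start site of the member was 2330.5 to 5378 bp. The difference in peaks at effector genes was then 2 to 5 and in peaks at transcription factor genes -8 to -3. Pairing lists by replicate number (a replicate block) could not change a difference of means, such as -5.5 for peaks at transcription factor genes. Its exact permutation p was 0.5, the smallest that 2 pairs can give, and 1 for all member peaks. Nothing in the labels ties lists of the same number together. Depth limits every statement on absence.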

Other observations

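Markers of other cell types were examined in the same way, by peaks only. Of 13 genes for neurons, muscle, germline and fat body, 1 had a peak in both mock lists and 7 (53.8%) had a peak in both Triptolide lists, against 6.67% and 30.0% of all protein-coding genes. The former was elav, which encodes a neuronal RNA-binding protein, with summits 126 and 108 bp from its start site in mock replicates 1 and 2. The latter were elav, nSyb, brp, Mhc, Mlc2, vas and Lsp2. The median length of the 13 genes was 9.1 kb. Among protein-coding genes from 5 to 10 kb, 11.2% had a peak in both mock lists and 37.2% in both Triptolide lists.

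Several peaks lay between 1500 and 5000 bp from a member. Beyond the 3′ end of ush, both mock lists held a peak 69 and 106 bp from a start site of nAChRbeta3, where Triptolide replicate 2 had a summit 179 bp away and Triptolide replicate 1 had none. Another 3 peaks of Triptolide replicate 2 lay in wts, downstream of zfh1, at percentiles from 2.62 to 44.7. Both Triptolide lists held a peak in CG4133, 5140 and 4897 bp upstream of the nearest start site of crq, at percentiles of 54.1 and 41.0.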
